A study of Mus musculus with 18 samples.

Results

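The genes described are the platelet-derived growth factor (PDGF) ligands Pdgfa, Pdgfb, Pdgfc and Pdgfd, the PDGF receptors Pdgfra and Pdgfrb, and the vascular endothelial growth factor (VEGF) ligands Vegfa, Vegfb, Vegfc and Pgf (placental growth factor). They were chosen by gene symbol, with earlier results of these data known. Member counts set beside the shares of all probes therefore describe the members and do not test them as a set. Every probe whose platform annotation names any of the 10 symbols was read. These were 17 probes of the 45281 on the array, for 10 of the 19057 genes with a single symbol. Expression was measured on 18 single-colour bead arrays, with 3 arrays in each of 6 groups. All groups were primary fibroblasts from male C57BL/6 embryos of day 13.5, cultured with 10% serum. They were either wild type or knockout for DUSP5, a nuclear phosphatase that inactivates the kinase ERK, and came from littermates. Both genotypes were collected at 0 h and after 1 h and 3 h with 100 ng/ml of TPA, a phorbol ester that activates protein kinase C. No group received the solvent alone, so time and TPA cannot be told apart. The labels do not say whether the 3 arrays of a group came from separate cultures or embryos, so the p-values cover no more than the variation among these arrays, and that may be technical.

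PDGF ligands are secreted as dimers and bind receptor tyrosine kinases on fibroblasts and other mesenchymal cells, where they drive proliferation and migration. PDGF-B dimers bind both receptors, while PDGF-A dimers bind the alpha receptor. VEGF ligands act mainly on receptors of endothelial cells: VEGF-A drives the growth and permeability of blood vessels, and VEGF-C the growth of lymphatic vessels. Fibroblasts are known as targets of PDGF and as a source of VEGF for neighbouring vessels.

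Promoters are printed for 4 of the members whose values moved with TPA or with genotype. Each is the 250 bases before the annotated start, read 5′ to 3′ along the gene's strand from RefSeq on build GRCm38.p6. Capitals mark matches to the GC box (GGGCGG, the binding letters of SP1 family factors) and to the EGR motif (GCGNGGGCG, those of EGR1), on either strand.
Vegfa (start 1, chr17:46032378-46032627, minus strand): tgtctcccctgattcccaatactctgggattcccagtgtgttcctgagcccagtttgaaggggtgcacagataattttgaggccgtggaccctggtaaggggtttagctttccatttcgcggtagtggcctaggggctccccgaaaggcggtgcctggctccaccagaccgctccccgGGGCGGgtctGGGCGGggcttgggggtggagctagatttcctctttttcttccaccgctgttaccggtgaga
Vegfc (chr8:54077282-54077531, plus strand): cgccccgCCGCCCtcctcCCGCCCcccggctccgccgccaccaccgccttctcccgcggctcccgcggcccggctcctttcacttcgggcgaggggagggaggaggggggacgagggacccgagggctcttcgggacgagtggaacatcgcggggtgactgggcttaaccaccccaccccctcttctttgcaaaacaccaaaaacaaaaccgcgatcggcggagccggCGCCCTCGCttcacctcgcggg
Pdgfra (chr5:75152001-75152250, plus strand): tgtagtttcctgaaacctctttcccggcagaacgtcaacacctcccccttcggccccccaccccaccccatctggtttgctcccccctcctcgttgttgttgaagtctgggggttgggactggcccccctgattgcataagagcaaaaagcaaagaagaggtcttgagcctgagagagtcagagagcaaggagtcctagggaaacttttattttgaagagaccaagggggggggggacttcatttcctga
Vegfb (chr19:6987652-6987901, minus strand): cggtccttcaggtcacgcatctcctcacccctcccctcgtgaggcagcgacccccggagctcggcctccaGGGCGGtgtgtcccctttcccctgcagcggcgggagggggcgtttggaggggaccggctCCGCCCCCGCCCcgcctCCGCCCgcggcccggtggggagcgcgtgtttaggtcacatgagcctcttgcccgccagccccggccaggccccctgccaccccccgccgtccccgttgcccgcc
Vegfa start 1 holds 2 GC boxes, at -72 to -67 and -62 to -57 counted from the start. The Vegfc window holds an EGR motif at -22 to -14, and the Vegfb window holds one at -120 to -112 that overlaps a pair of its 4 GC boxes. The Pdgfra window lies within the span of the gene, which begins at 75151322, so it precedes an annotated start inside that span. The window holds no match to any of the 7 motifs searched. Of 11 starts annotated for 8 of the 10 genes, all but Pdgfb and Pdgfrb, 7 hold a GC box and 2 an EGR motif. Over 32851 promoters of the same length, 32.7% hold a GC box and 4.7% an EGR motif. The starts with a GC box belong to 5 genes. Their windows are 59.2% to 76.4% G and C, against a median of 52.4% over all promoters. The part of base composition in these counts was not tested. The AP-1 motif (TGANTCA) and the cAMP response element (TGACGTCA) are in 0 of the 11 starts, against 6.75% and 1.55% of all promoters. The other motifs searched were the hypoxia core (ACGTG, in 16.6% of all promoters and in Vegfa start 2), the CArG box (1.47%, in Pdgfc) and the TATA box (TATAAA, 12.4%, in Pdgfd). These matches describe letters in a window and say nothing of binding.

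Of the 17 probes, 14 probes of 9 genes were detected (detection p below 0.05 on at least 3 arrays) and tested. Neither Pdgfd probe was detected on any of the 18 arrays (deposited signals 87.3 to 106.8), nor was Vegfa probe 3 (93.0 to 106.3). The 4 dimmest tested probes were Pdgfb probe 2 (detected on 7 arrays), Pdgfc probe 3 (3 arrays), Pdgfra probe 2 (5 arrays) and Pgf (12 arrays), and the other 10 were detected on all 18. Values below are normalised log2 intensities unless the deposited signal is named. They compare arrays for a given probe and cannot be compared between probes. A probe was called when limma's Benjamini-Hochberg adjusted p over all 20239 tested probes was below 0.05.

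The arrays had 16675 to 18348 detected probes each, and pairs within a group correlated at 0.990 to 0.995. The mean deposited signal of the wild-type 0 h arrays, 296 to 357, was higher than that of the other wild-type arrays, 262 to 286, so deposited signals and normalised values need not move together. The Dusp5 probe read 54.1%, 51.1% and 63.5% of the wild-type level in the knockout at 0 h, 1 h and 3 h, and the sources used here do not place it relative to the deletion. Of 8 fibroblast markers, 7 were detected on all arrays. Of 8 endothelial markers, Tie1 and Vwf were detected on 0 arrays and Pecam1 and Cdh5 on 1 of 18, while Emcn was detected on all, Esam on 15, Kdr on 14 and Tek on 7. Their summed level ran from 219 to 224 in wild type at 0 h and from 219 to 237 at 3 h, and from 203 to 221 and 226 to 239 in the knockout, where Esam was called higher at 3 h (0.52, limma adjusted p = 0.0341) and Kdr lower. Their part in the members' results was not tested. Ptprc, the pan-leukocyte marker, was detected on 0 arrays, but Lyz2, Csf1r and Adgre1, macrophage genes, on all 18. Of 6 epithelial markers, Krt5 and Epcam were detected on 0 arrays, Krt14 on 1, Krt8 on 10, Cdh1 on 15 and Krt18 on 18. The summed level of the list ran from 161 to 192 in wild type at 0 h and from 207 to 217 at 3 h, where Krt18 was called. Its part in the results at 3 h was not tested.

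After TPA, 2 of the 9 tested genes, Pdgfb and Vegfa, were higher at 1 h in both genotypes, and at 3 h Pdgfra and Vegfc were higher too. In wild type at 1 h, 3 of the 14 probes were higher and 0 lower, where 2.62% of all tested probes were called, 1.47% as higher and 1.15% as lower. At 3 h 5 probes were higher and 0 lower, where 12.3% of all were called, 5.84% as higher and 6.43% as lower. In the knockout the same 3 probes were higher at 1 h, with 4.1% of all probes called, 2.09% as higher and 2% as lower. The same 5 were higher at 3 h, with 14.1% called, 6.68% as higher and 7.39% as lower. The 0 h and treated arrays of wild type did not overlap for 4 of the 14 probes at 1 h and 7 at 3 h, and for 15.9% and 28.8% of all probes. In the knockout they did not overlap for 3 at 1 h and 8 at 3 h, and for 20.3% and 28% of all. The median change of the 14 probes at 3 h was 0.32 log2 units in wild type and 0.26 in the knockout, beside 0.00 and -0.01 over all tested probes. In these cultures, fewer cells of a type and less RNA per cell cannot be told apart.

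**Figure D1:**
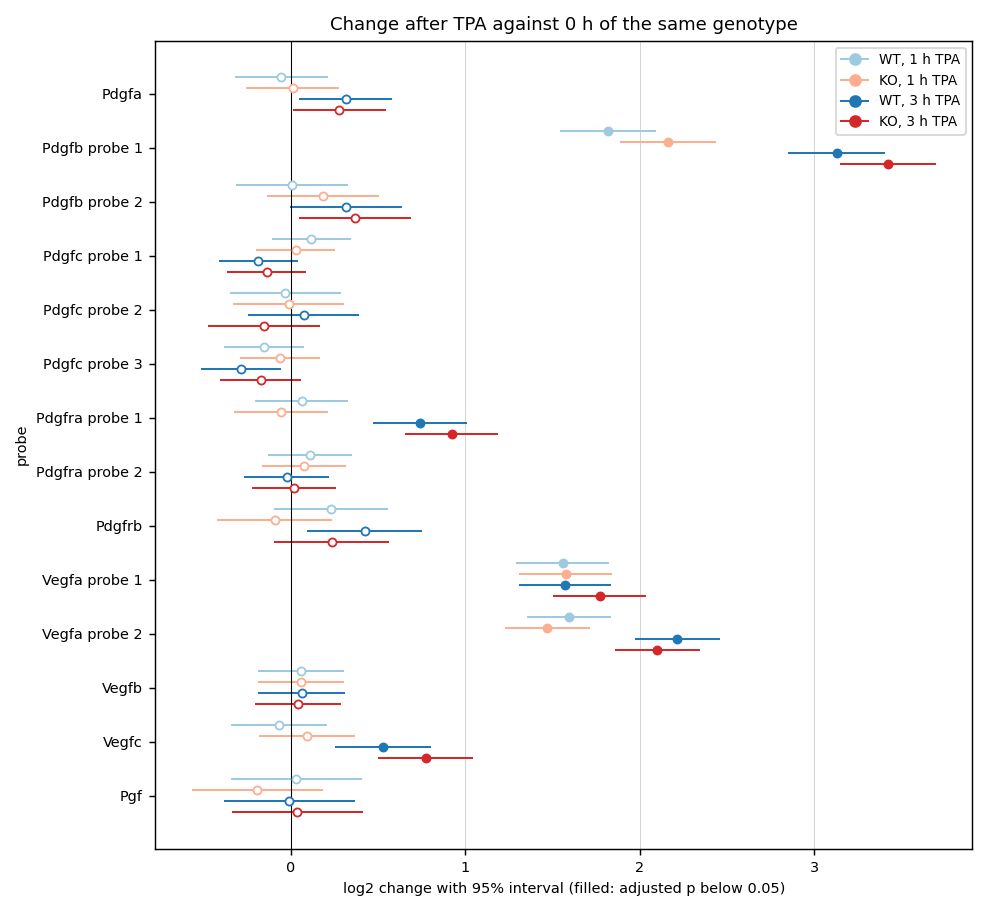
Change of each tested probe from 0 h on the log2 scale (horizontal axis) at 1 h and 3 h in wild type and knockout, with 95% confidence intervals and filled points for adjusted p below 0.05. Pdgfb probe 1 and Vegfa probes 1 and 2 lie furthest to the right in both genotypes, and Pdgfb probe 1 reaches 3.13 in wild type and 3.42 in the knockout at 3 h.

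Pdgfb on chromosome 15 (79995865 to 80024614, GRCm38.p6), which encodes the PDGF-B chain, had the largest change among the members, and it rested on 1 of its 2 probes. The values of Pdgfb probe 1 (ILMN_2618714) in wild type were 5.04, 5.15 and 4.86 at 0 h, 6.82, 6.76 and 6.92 at 1 h, and 8.21, 8.14 and 8.08 at 3 h. In the knockout they were 5.57, 5.16 and 5.43 at 0 h, 7.66, 7.28 and 7.70 at 1 h, and 8.82, 8.62 and 8.99 at 3 h. Within each genotype the 3 times do not overlap, and every array at 3 h was above every array at 1 h. Wild type rose by 1.82 ± 0.13 (SE, n = 3 a group) at 1 h, or 3.53-fold (limma adjusted p = 3.57e-09). At 3 h it rose by 3.13 ± 0.13, or 8.75-fold (adjusted p = 3.8e-13). By mean, the groups ran from wild type to knockout at 0 h, then at 1 h, then at 3 h, and of the genotype pairs at one time the 0 h pair was not called as different. Neighbours in this order that differ in both genotype and time were not tested against each other. The knockout rose 4.48-fold at 1 h (adjusted p = 1.51e-10) and 10.7-fold at 3 h (adjusted p = 4.57e-14).

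The fold of this dim probe depends on the background correction. Its deposited signals in wild type were 122.0, 137.2 and 119.9 at 0 h, and 360.5, 328.0 and 354.1 at 3 h. In the knockout they were 143.6, 116.0 and 120.6 at 0 h, and 439.3, 505.6 and 519.3 at 3 h. Without background correction the rise at 3 h was 3.13-fold in wild type and 4.20-fold in the knockout, and on the authors' normalised values it was 3.06-fold and 4.10-fold. It was called under every alternative tried.

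Pdgfb probe 2 (ILMN_2726543), annotated to the same transcript, stayed close to background. Its deposited signals in wild type were 102.2, 113.6 and 112.1 at 0 h, 102.2, 98.3 and 106.9 at 1 h, and 116.7, 107.3 and 107.1 at 3 h. In the knockout they were 104.0, 100.3 and 98.6 at 0 h, 106.2, 99.3 and 99.7 at 1 h, and 100.5, 113.0 and 111.5 at 3 h. The deposited signals of the wild-type times overlap. The normalised difference at 3 h was 0.32 ± 0.15 in wild type (limma adjusted p = 0.199) and 0.37 ± 0.15 in the knockout (adjusted p = 0.124), neither called. Scaling to the median of the tested probes gave 0.66 and 0.48, both called. On 0 of the 3 knockout 0 h arrays was probe 2 detected, and at 3 h it was detected on 2. With the 0 h group taken at the detection limit, the knockout means at 3 h and 0 h differ 1.06-fold. That value makes no allowance for the spread among arrays, and no rise of probe 2 is shown by it. Across the 18 arrays the probes correlated at r = 0.612, over points that share their groups.

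**Figure D2:**
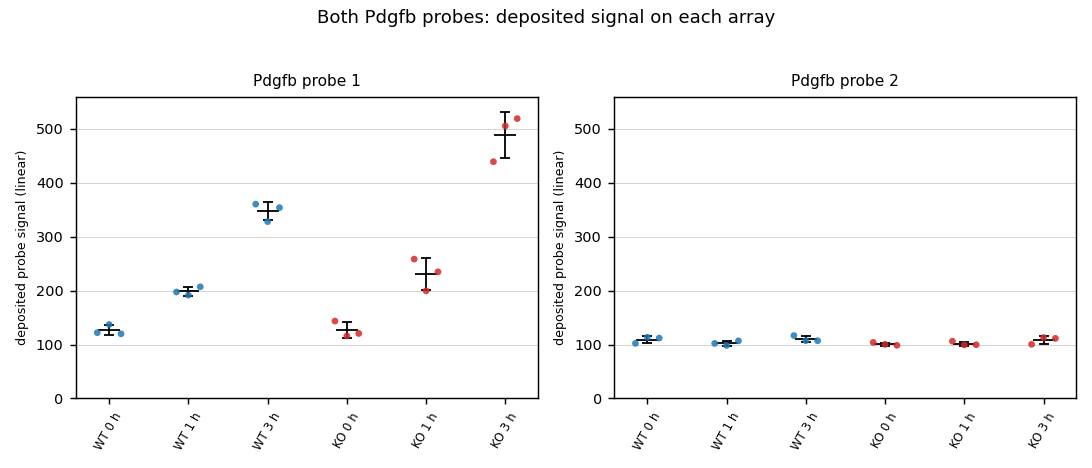
Deposited signal (vertical axis, linear, arbitrary units) of the 2 Pdgfb probes on each of the 18 arrays, by genotype and hours of TPA (horizontal axis), with points for arrays and bars for the group mean ± SD (n = 3). Probe 1 climbs from 0 h to 3 h in both genotypes, while probe 2 stays between 98.3 and 116.7.

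Vegfa on chromosome 17 (46016993 to 46032377), the principal growth factor of blood vessel endothelium, rose on both of its detected probes. Vegfa probe 1 (ILMN_2484527) in wild type read 9.93, 9.89 and 9.89 at 0 h, 11.61, 11.32 and 11.46 at 1 h, and 11.30, 11.70 and 11.43 at 3 h. In the knockout it read 9.82, 9.93 and 10.07 at 0 h, 11.48, 11.36 and 11.70 at 1 h, and 11.53, 11.92 and 11.67 at 3 h. All treated arrays were above all 0 h arrays, and 1 h and 3 h overlap in both genotypes. The wild-type rise was 2.94-fold at 1 h (limma adjusted p = 2.16e-08) and 2.97-fold at 3 h (adjusted p = 7.85e-09). The knockout rise was 2.98-fold at 1 h and 3.41-fold at 3 h (adjusted p = 1.34e-08 and 8.17e-10). Between 1 h and 3 h the difference was 0.01 in wild type (95% interval -0.25 to 0.27) and 0.20 in the knockout (-0.06 to 0.45).

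Vegfa probe 2 (ILMN_3121255), annotated to another Vegfa transcript, as is the undetected probe 3, separated 1 h from 3 h. It read 8.34, 8.15 and 7.92 in wild type at 0 h, 9.73, 9.89 and 9.58 at 1 h, and 10.30, 10.47 and 10.29 at 3 h. In the knockout it read 8.43, 8.47 and 8.67 at 0 h, 9.94, 9.96 and 10.08 at 1 h, and 10.68, 10.55 and 10.66 at 3 h. No 2 times of a genotype overlap. The wild-type rise was 3.02-fold at 1 h (limma adjusted p = 3.57e-09) and 4.64-fold at 3 h (adjusted p = 1.0e-11), and the knockout rise was 2.77-fold and 4.29-fold (adjusted p = 9.71e-09 and 1.2e-11). From 1 h to 3 h it rose by a further 0.62 ± 0.11 in wild type (adjusted p = 0.00104) and 0.63 ± 0.11 in the knockout (adjusted p = 6.13e-04). The wild-type step was not called with scaling to the median of all probes (0.46, adjusted p = 0.0518). Both Vegfa probes correlated at r = 0.951 across the arrays, and Pdgfb probe 1 with Vegfa probe 2 at r = 0.980, again over shared groups.

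**Figure D3:**
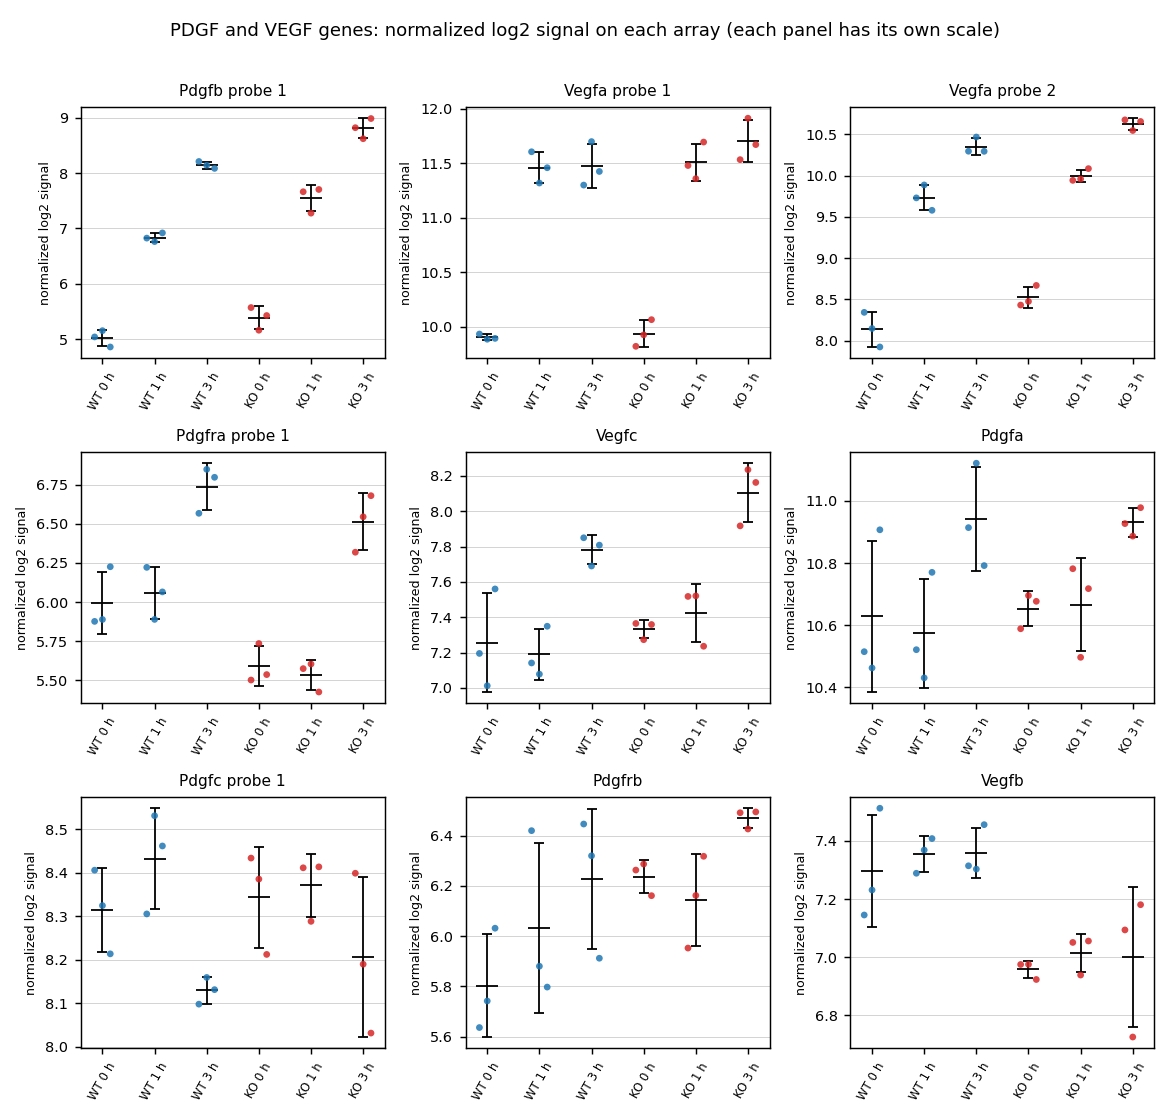
Normalised log2 intensity (vertical axis) of 9 of the tested probes on the 18 arrays, by genotype and hours of TPA (horizontal axis), with a point for each array, bars for the group mean ± SD (n = 3) and a scale of its own for each panel. Pdgfb probe 1 and both Vegfa probes are higher at 1 h than at 0 h, and Pdgfra probe 1 and Vegfc are higher at 3 h alone.

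Vegfc on chromosome 8 (54077532 to 54186454), the lymphatic growth factor, was higher at 3 h and not called at 1 h. It read 7.20, 7.01 and 7.56 in wild type at 0 h, 7.14, 7.08 and 7.35 at 1 h, and 7.85, 7.69 and 7.81 at 3 h. In the knockout it read 7.36, 7.27 and 7.36 at 0 h, 7.52, 7.52 and 7.24 at 1 h, and 7.92, 8.23 and 8.16 at 3 h. The 3 h arrays lie above the others of their genotype, and 0 h and 1 h overlap. The rise from 0 h to 3 h was 1.44-fold in wild type (limma adjusted p = 0.00842) and 1.71-fold in the knockout (adjusted p = 1.8e-04). From 1 h to 3 h it was 1.51-fold and 1.60-fold (adjusted p = 0.00495 and 0.00103). With scaling to the median of all probes the wild-type rise was not called. It was 1.07-fold from 0 h (adjusted p = 0.662) and 0.47 log2 units from 1 h (adjusted p = 0.132). That scaling put the median wild-type change of all tested probes at -0.29 from 0 h to 3 h and -0.08 from 1 h to 3 h. The rise from 0 h was not called without the second wild-type 0 h array either (0.40, adjusted p = 0.0691). It was called under every other setting and left-out array. The deposited signal of Vegfc in wild type averaged 292 at 0 h and 291 at 3 h.

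Vegfb, which acts on VEGF receptor 1, was flat over time, with TPA differences of 0.04 to 0.06 in both genotypes and intervals within -0.20 to 0.30. Pgf, which binds the same receptor, gave differences of -0.19 to 0.04 (adjusted p = 0.724 to 0.986) and was detected on 12 arrays. Among the other PDGF ligands, Pdgfa was not called at 3 h (0.31 in wild type, adjusted p = 0.114; 0.28 in the knockout, adjusted p = 0.171). The wild-type value was called with a variance trend (adjusted p = 0.0398) and without the third wild-type 0 h array (0.45, adjusted p = 0.0247). Pdgfc probe 1 stood at -0.19 in wild type and -0.14 in the knockout at 3 h, not called either. In wild type it was called lower with scaling to the median of all probes (-0.62, adjusted p = 0.00184), which put the median of all tested probes at -0.29. The other 2 Pdgfc probes were not called in any comparison.

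Of the receptors, Pdgfra on chromosome 5 (75151322 to 75198206), the receptor of PDGF-A, -B and -C dimers, was higher at 3 h in both genotypes. Pdgfra probe 1 (ILMN_1235932) read 5.88, 5.89 and 6.23 in wild type at 0 h, 6.22, 5.89 and 6.07 at 1 h, and 6.57, 6.85 and 6.80 at 3 h. In the knockout it read 5.50, 5.74 and 5.54 at 0 h, 5.58, 5.60 and 5.43 at 1 h, and 6.32, 6.54 and 6.68 at 3 h. By normalised value, arrays at 3 h lie above those at 0 h and 1 h, which overlap. The deposited signals of wild type overlap between 0 h (152.3 to 185.8, mean 170.6) and 3 h (174.1 to 195.3, mean 184.2). Those of the knockout do not (123.6 to 141.0 at 0 h, 145.9 to 183.7 at 3 h). The rise at 3 h was 1.67-fold in wild type (limma adjusted p = 2.77e-04) and 1.90-fold in the knockout (adjusted p = 1.4e-05). The wild-type rise was 1.29-fold and not called with scaling to the median of all probes (adjusted p = 0.0620). Pdgfra probe 2, detected on 5 arrays, gave -0.02 and 0.02 at 3 h, so the rise rests on 1 probe.

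Pdgfrb on chromosome 18, the PDGF-B receptor of pericytes and fibroblasts, was not called over time. It read 5.64, 5.74 and 6.03 in wild type at 0 h and 6.45, 6.32 and 5.91 at 3 h, and the groups overlap. The difference was 0.42 ± 0.15 (limma adjusted p = 0.0826), and it was called without the third wild-type 3 h array (0.58, adjusted p = 0.0243) or without the first wild-type 1 h array (0.42, adjusted p = 0.0432). In the knockout it read 6.26, 6.29 and 6.16 at 0 h and 6.49, 6.43 and 6.49 at 3 h, which do not overlap, and the difference was 0.23 (adjusted p = 0.401). The summed level of 7 pericyte and smooth muscle markers ran from 470 to 488 in wild type at 0 h and from 520 to 553 at 3 h, Cspg4 being the single member called, and its part in the PDGF receptor values was not tested.

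From 1 h to 3 h, 4 of the 14 probes were higher and 0 lower in each genotype: Pdgfb probe 1, Vegfa probe 2, Pdgfra probe 1 and Vegfc. Over all probes 7.12% were called in wild type, 3.59% as higher and 3.53% as lower, and 10.3% in the knockout, 5.45% as higher and 4.81% as lower. The times did not overlap for 7 of the 14 probes in wild type and 6 in the knockout, beside 23.7% and 23.8% of all. On the authors' normalised values 6 probes were called in wild type, with Pdgfa higher (0.35, adjusted p = 0.0439) and Pdgfc probe 1 lower (-0.24, adjusted p = 0.0342) added, and without background correction also 6. With scaling to the median of all probes 2 were called. Pdgfb probe 1 rose by a further 1.31 in wild type and 1.26 in the knockout (limma adjusted p = 5.57e-07 and 5.33e-07).

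DUSP5 knockout and wild type differed in 1 PDGF ligand at both treated times. At 0 h, 0 of the 14 probes were called with limma (5 at an unadjusted p below 0.05), where 1.16% of all probes were called. At 1 h 2 were called, Pdgfb probe 1 higher and Pdgfra probe 1 lower in the knockout, where 1.29% of all were called. At 3 h only Pdgfb probe 1 was called, higher in the knockout, where 3.11% of all were called. Averaged over the times 4 were called, Pdgfb probe 1 and Vegfa probe 2 higher and Pdgfra probe 1 and Vegfb lower, where 8.22% of all were called.

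Pdgfb probe 1 in the knockout was above wild type by 0.37 ± 0.13 at 0 h (limma adjusted p = 0.204, not called), by 0.71 ± 0.13 or 1.64-fold at 1 h (adjusted p = 0.00484), and by 0.66 ± 0.13 or 1.58-fold at 3 h (adjusted p = 0.00498). The normalised values of the genotypes do not overlap at any of the 3 times, but at 0 h they nearly touch (wild type up to 5.15, knockout from 5.16). The deposited signals of the genotypes overlap at 0 h (119.9 to 137.2 in wild type, 116.0 to 143.6 in the knockout). At 1 h they overlap too (191.7 to 207.1 and 199.6 to 258.5), and at 3 h they do not. The genotypes did not overlap for 5, 4 and 4 of the 14 probes at 0 h, 1 h and 3 h, beside 18.6%, 16.6% and 19.2% of all. Its deposited signal averaged 126 in wild type and 127 in the knockout at 0 h, and 348 and 488 at 3 h. The 0 h difference was 0.52 and called with scaling to the median of the tested probes (adjusted p = 0.0358). The 1 h difference was 1.33-fold and not called with scaling to the median of all probes (adjusted p = 0.101). Probe 2 showed no such difference, with -0.08, 0.09 and -0.03 at the 3 times (95% interval at 3 h -0.35 to 0.28).

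Pdgfra probe 1 was lower in the knockout by -0.41 at 0 h (limma adjusted p = 0.132) and -0.52 at 1 h (adjusted p = 0.0403), and stood at -0.22 at 3 h (adjusted p = 0.446), where the genotypes overlap. The mean difference was -0.38 ± 0.07 (adjusted p = 0.00143). The 1 h call was lost under 5 of the 10 other settings (adjusted p up to 0.0971) and when any of 7 single arrays was left out (adjusted p up to 0.197), with the same sign throughout. With scaling to the median of all probes the 0 h difference was -0.68 and called (adjusted p = 0.00836), with the median of all tested probes at -0.21. The summed level of the 7 pericyte and smooth muscle markers was lower in the knockout at 0 h (421 to 433, against 470 to 488 in wild type), and Des, at -0.45, was the single marker called there. Kcnj8, Myh11 and Cspg4 stood at 0.55, 0.22 and 0.11 at 0 h, the list median was -0.06, and Myh11 was called higher on average (0.39, adjusted p = 0.0018). The part of these markers in the Pdgfra difference was not tested.

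Vegfb in wild type read 7.15, 7.23 and 7.51 at 0 h, 7.29, 7.37 and 7.41 at 1 h and 7.31, 7.30 and 7.46 at 3 h. In the knockout it read 6.98, 6.98 and 6.92, then 7.05, 6.94 and 7.06, then 7.09, 6.73 and 7.18. Every knockout array was below every wild-type array of its time. The differences of -0.34, -0.34 and -0.36 were not called singly (limma adjusted p = 0.188, 0.186 and 0.113), and their mean of -0.35 ± 0.07 was (adjusted p = 0.0018). With scaling to the median of all probes the differences at 0 h and 1 h were -0.66 and -0.64, both called (adjusted p = 0.00922 and 0.0155). That scaling put the median difference of all tested probes at -0.21 and -0.20 at those times. Vegfa probe 2 was higher by 0.31 ± 0.07 on average (adjusted p = 0.00417), while probe 1 gave 0.10 (95% interval -0.05 to 0.25), and the probe 2 difference was 0.11 with scaling to the median of all probes (adjusted p = 0.294). Pdgfrb stood at 0.43 at 0 h (adjusted p = 0.212) and 0.26 on average (adjusted p = 0.0769). That mean was called when the first array of wild type at 1 h (0.33, adjusted p = 0.0143), the first at 3 h (0.30, adjusted p = 0.0496) or the third at 0 h (0.30, adjusted p = 0.0493) was left out. The deposited signal of Vegfa probe 2 at 0 h averaged 460 in wild type and 458 in the knockout.

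**Figure D4:**
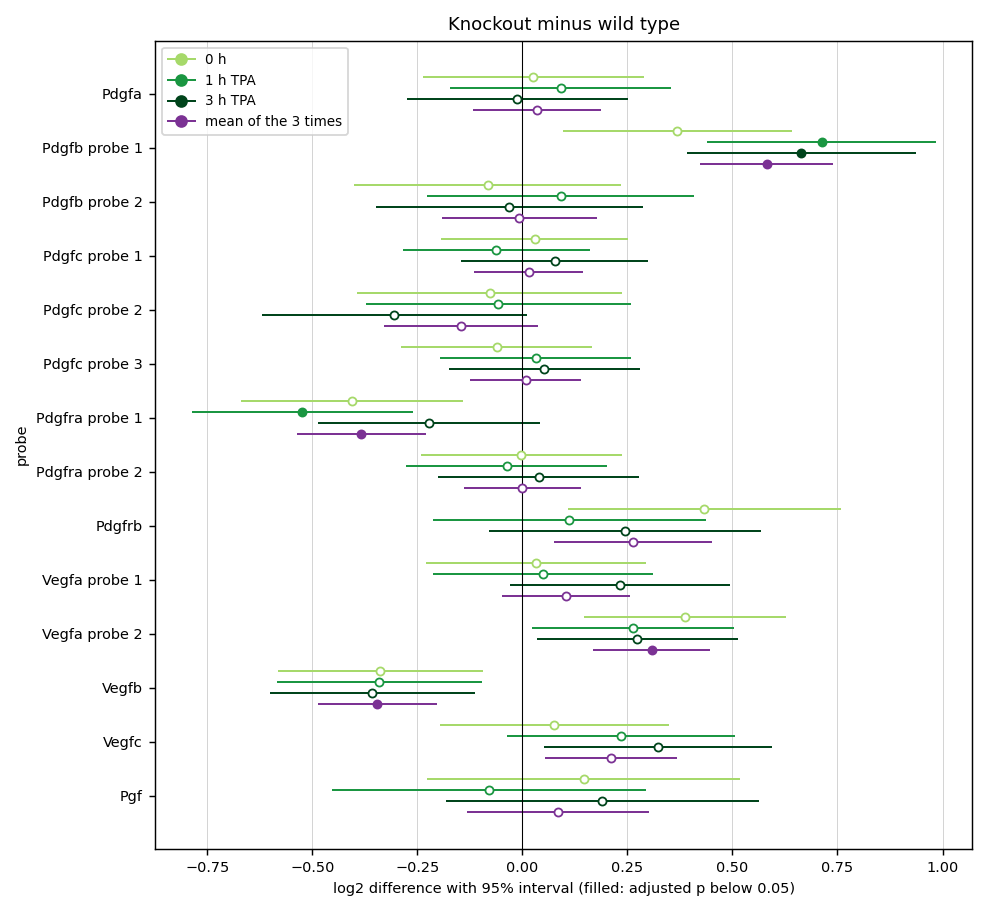
Knockout minus wild type on the log2 scale (horizontal axis) for each tested probe at 0 h, 1 h and 3 h and as their mean, with 95% confidence intervals and filled points for adjusted p below 0.05. Pdgfb probe 1 lies to the right of 0 at each time, and Vegfb and Pdgfra probe 1 to the left.

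The size of the TPA response was not shown to differ between genotypes for any member. The test of the difference called 0 of 14 probes at 1 h and 0 at 3 h (0 also at an unadjusted p below 0.05, limma), where 0.0148% and 0.153% of all probes were called. For Pdgfb probe 1 the knockout response exceeded the wild-type one by 0.34 at 1 h (95% interval -0.04 to 0.73, adjusted p = 0.883) and by 0.30 at 3 h (-0.09 to 0.68, adjusted p = 0.673). For Vegfa probe 1 the differences were 0.02 and 0.20, and for Vegfc 0.16 and 0.25, all with intervals that include 0.

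Other genes of the pathway were described by lists, with values from the brightest probe of a gene. Among 7 further ligands, receptors and coreceptors, 0 rose and 2 fell in wild type at 3 h, and 1 fell in the knockout. Over all tested probes 12.3% were called in wild type and 14.1% in the knockout. Vegfd fell by 0.64 in wild type and Nrp1, a VEGF coreceptor, by 0.35 (limma adjusted p = 0.0302 and 0.0236). In the knockout Nrp1 stood at -0.24 and was not called (adjusted p = 0.130), but 1 of its 2 other tested probes was called lower. In the knockout Kdr, the main VEGF-A receptor, fell by 0.38 (adjusted p = 0.0497), and Vegfd stood at 0.00. Both probes lie close to background. Kdr went from 4.98 to 4.60 in the knockout and was detected on 2 of 3 arrays at 3 h. Vegfd at 0 h was at 4.77 in the knockout, detected on 2 of 3 arrays, against 5.45 in wild type. A fall of Vegfd in the knockout could hardly be seen from there. Among 13 genes that process or bind the ligands, 3 rose and 3 fell at 3 h in each genotype, where 12.3% of all tested probes were called in wild type and 14.1% in the knockout. Plau and Plat, the plasminogen activators, rose by 0.81 and 0.60 in wild type and by 1.51 and 0.77 in the knockout. Mmp9, a matrix protease that releases bound VEGF, rose by 0.70 and 0.89, and was higher in the knockout at 0 h, 1 h and 3 h by 0.87, 0.94 and 1.05. Thbs1, Ccn2 and Adamts1, which bind or restrain VEGF, fell by 0.93, 1.05 and 0.75 in wild type and by 0.86, 0.93 and 0.82 in the knockout.

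Among 15 genes that act next to the receptors, 2 rose and 2 fell in wild type at 3 h, and 1 rose and 2 fell in the knockout, beside the same 12.3% and 14.1% of all probes. Pik3cb, a catalytic subunit of PI3-kinase, fell by 1.07 and 0.85, Gab1, a docking protein, fell by 0.67 and 1.01, and Rasa1, a RAS GTPase-activating protein, rose by 0.48 and 0.60. Among 7 genes that down-regulate the receptors, Cblb, a ubiquitin ligase, and Ptpn1, a tyrosine phosphatase, rose at 3 h by 0.55 and 0.52 in wild type and by 1.12 and 0.82 in the knockout. Of the 2 other tested Cblb probes, 0 were called higher at 3 h in wild type and 1 in the knockout. Ptprb fell by 0.60 in the knockout. Among 12 genes of transcription and oxygen sensing, 1 rose at 1 h in each genotype, beside 2.62% and 4.1% of all probes called. Egr1, whose product binds the EGR motif, rose by 1.76 in wild type and 1.91 in the knockout. At 3 h 2 rose in wild type, Ets1 and Egln3, and in the knockout Egr1, Ets1, Egln3 and Klf5 rose and Egln1 fell. Egln3, an oxygen-sensing hydroxylase, rose by 1.03 in wild type and 0.52 in the knockout.

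Of 6 tested genes known to respond to low oxygen, as Vegfa does, 3 rose and 1 fell at 3 h in each genotype. Over all tested probes 12.3% were called in wild type and 14.1% in the knockout, in either direction. Ndrg1, Ankrd37 and Slc2a1, the glucose transporter, rose by 1.55, 1.40 and 0.53 in wild type and by 2.26, 0.69 and 0.93 in the knockout. Adm, the vasodilator adrenomedullin, fell by 2.26 in wild type and 2.13 in the knockout (limma adjusted p = 5.27e-10 and 9.56e-10). No measure of oxygen is among the labels.

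Between genotypes, 8 of these list genes besides Mmp9 were called at a single time or on average, where 1.16%, 1.29%, 3.11% and 8.22% of all tested probes were called at 0 h, 1 h, 3 h and on average. At 3 h Egr1, Klf5, Ndrg1 and Plau were higher in the knockout by 1.28, 0.61, 0.58 and 0.53 (limma adjusted p = 1.31e-07, 0.00193, 0.0142 and 0.00713). Egln3, Pik3r1, the regulatory subunit of PI3-kinase, and Ankrd37 were lower there, by -0.62, -0.47 and -0.88 (adjusted p = 0.00329, 0.00852 and 3.96e-04). Ankrd37 was lower at 1 h too, by -0.60, and Vegfd was lower on average, by -0.40. Nrp1 is not in this count, as its brightest probe was not called (0.25 at 3 h, 0.18 on average). Of its 2 other tested probes, 1 was called higher in the knockout at 3 h and 1 on average. At 1 h of TPA in wild type, Nck1, an adaptor protein, fell by 0.53, and at 3 h Pik3r1 rose by 0.42.

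The genes most like the members in pattern were picked by Pearson correlation over the 18 arrays among 10594 genes, as a description. For Pdgfb probe 1 they were Mmp10, a matrix protease (r = 0.989), Sox9, a transcription factor of cartilage (0.985), and Sphk1, a sphingosine kinase (0.984). For Vegfa probe 1 they were the chemokine Ccl4 (0.981), the transcription factor Cebpb (0.978) and Errfi1, an inhibitor of the EGF receptor (0.978). All of these points share the groups, so a common rise with TPA is enough to give a high correlation.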

How the data were processed

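RNA from 18 samples was hybridised to mouse bead arrays. The intensity of each probe and array was deposited without normalisation, and is an unlogged bead signal per the file headers. Detection p-values deposited by the authors were used without change. The authors' normalised log2 values, deposited in the series matrix, served as an alternative. The scanner and the software behind these values are not given in the sources used here.

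The neqc function of limma 3.58.1 (R 4.3.3) corrected background from the detection p-values, added an offset of 16, and gave quantile-normalised log2 values. Probes detected (p below 0.05) on at least 3 of 18 arrays were kept, 20239 of 45281. All arrays entered 1 linear model of the 6 groups, and 12 comparisons were made with moderated variances (12 residual degrees of freedom), and p-values were adjusted over all kept probes within each comparison. Every probe was tested as itself, and all probes of the members are named. Of other genes, the text names the targeted gene, up to 4 per list and direction with the largest called TPA change, those called between genotypes, and 3 for likeness to Pdgfb and to Vegfa. The method was tested on simulated data.

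Gene symbols came from the platform annotation, and coordinates and promoters from RefSeq. The members and lists were chosen with earlier results of these data known. Alternatives are given below. Samples were grouped by their labels. The number of arrays limits the precision.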

Additional observations from a re-analysis of the deposited data

Results flagged for a closer look

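Egr1, the transcription factor whose binding letters are in the Vegfb and Vegfc windows, had a 3 h TPA response that differed between the genotypes by 1.15 log2 units (limma adjusted p = 2.96e-04, with Benjamini-Hochberg adjustment over all tested probes). The difference itself was tested in the fit: the wild type stood at -0.10 at 3 h and the knockout at 1.05. It concerns a gene outside the PDGF and VEGF members, none of which was called in that test. Its relation to the members was not tested.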

How the results depend on the processing

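Of 168 values for the 14 probes in 12 comparisons, 31 were called. Under the other settings and left-out arrays, 842 of 861 repeats of these kept the call, 19 lost it and 0 reversed, and 24 of the 31 were called throughout. Of the 3747 repeats of the uncalled values, 25 became called. Scaling to the median of all probes put the median change of all tested probes at -0.22 at 1 h and -0.29 at 3 h in wild type. It cut the share of calls that were higher from 56.2% to 8.08% of 2041 calls at 1 h (530 in the main setting) and from 47.6% to 4.77% of 8024 at 3 h (2483 in the main setting). Between genotypes this scaling put the median difference of all tested probes at -0.21 at 0 h, -0.20 at 1 h and -0.14 on average. With it, 2 member probes in place of 4 were called from 1 h to 3 h in wild type (6 with the authors' values), and 2 in place of 0 between genotypes at 0 h. There, scaling to the median of the tested probes and a variance trend gave 1 each. Between genotypes at 1 h the count fell from 2 to 1 with the authors' values, without background correction, with scaling to the median of the tested probes, without a detection filter and with the compared arrays alone. The cause was not tested.

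Leaving out single arrays gave 3 to 3 member calls at 1 h and 4 to 6 at 3 h in wild type, and 3 to 3 and 5 to 6 in the knockout. From 1 h to 3 h it gave 4 to 5 in wild type and 4 to 4 in the knockout. Between genotypes it gave 0 to 1 at 0 h, 1 to 2 at 1 h, 1 to 1 at 3 h and 4 to 6 on average, and 0 to 0 for both response differences. The replicate block changed no member count (3, 5, 3, 5, 4, 4, 0, 2, 1, 4, 0 and 0). Same-numbered arrays deviated together in 9 of 45 pairs (r over 0.1, at most 0.41). For 15 of 18 arrays, the deviations from the group mean correlated best, on average, with the arrays of their own number in other groups. The labels do not say what a shared number stands for, so the main setting has no block. What the number stands for was not tested. Slide as a block was not run, since the files used here give no slide. The 4 dim probes lie close to background, where folds depend most on the correction.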
